A study of Mus musculus with 4 samples.

Results

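The enzymes of heme synthesis were described in whole mouse embryos without Ddx6, the gene of an RNA helicase of mRNA decay and translational repression. The set held 8 of the 24421 genes in the count table. Of these, 7 were taken by symbol as enzymes of the pathway, which were Alas1, Alad, Uros, Urod, Cpox, Ppox and Fech, and the eighth was Slc25a37, the mitochondrial iron carrier mitoferrin 1. Alas2, which encodes the erythroid form of the first enzyme, was not a member and served as a marker of red blood cells. RNA-seq of polyadenylated transcripts was compared over 4 libraries of ICR embryos. Wild-type embryos gave 1 library at each of embryonic days 7.5 and 8.5 (E7.5 WT and E8.5 WT), and Ddx6 -/- embryos gave 2, both of day 8.5 (KO1 and KO2). The null allele came from a floxed allele whose exon 5 was removed with the CAG-Cre deleter line, so the loss was present in the whole embryo. By the account of the study, KO1 pooled embryos from before and after head-fold formation and KO2 pooled embryos from before it, so genotype, delay in development and the makeup of each pool cannot be told apart.

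Heme is an iron porphyrin made in every cell that respires, and in the largest amounts in cells that make hemoglobin. Its synthesis opens in mitochondria with the condensation of glycine and succinyl-CoA, continues in the cytosol with the assembly and trimming of the porphyrin ring, and returns to mitochondria for oxidation of the ring and insertion of iron. At the stages sampled here, the first red blood cells of the mouse arise in the yolk sac, and the visceral endoderm feeds the embryo.

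All 8 genes had reads in every library, from 82 for Uros in KO1 to 1434 for Cpox in E8.5 WT, and all passed the minimum of 10 counts in at least 1 library that left 14393 genes. None differed from E8.5 WT by over 2-fold (a log2 difference above 1 or below -1, the criterion of the study's methods) in both KO libraries, as 5.22% of all genes kept did. Alad, Cpox and Slc25a37 were lower than in E8.5 WT in both KO libraries by 1.33-fold to 1.62-fold, beyond counting error, as 15.8% of all genes kept and 19.5% of those averaging 100 counts or more were, and Alas1, Uros, Urod, Ppox and Fech were not. Levels of Alad, Urod, Cpox, Fech and Slc25a37 in both KO libraries lay below those of both WT libraries, which makes 5 of the 8 genes, beside 17.6% of all genes kept. None of the 8 lay above both WT libraries in both KO libraries, as 18.4% of genes did. No gene of the set passed a test with an adjusted p-value.

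Promoter windows of RefSeq (GRCm38.p6, 250 bases before to 50 after an annotated start) were at hand for 6 of the 8 genes, in 9 windows, and were searched on both strands for motifs of factors known from other heme and mitochondrial genes. They were not at hand for Fech and Slc25a37. The core of the NRF1 motif, GCGCNTGCG, was found in windows of Alas1 and Uros and in 6.31% of the 32851 windows searched. The GATA motif, AGATAA, was found in the window of Cpox and in 11.2% of all windows. The stretches that follow hold those matches, which are in capitals, and are shown because these were the least frequent motifs among those found, and each is written 5′ to 3′ on the strand of its gene.
Alas1, first match (chr9:106247935-106247964, minus strand): gcttcggcgcGCGCGTGCGcgcggcaggcc
Alas1, second match (chr9:106247906-106247935, minus strand): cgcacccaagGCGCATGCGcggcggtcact
Uros (chr7:133709323-133709352, minus strand): cggtcacactGCGCCTGCGcgagtcccgcc
Cpox (chr16:58670200-58670229, plus strand): cagggtgcagtcTTATCTgctctttccggg
The second Alas1 match also read as the motif on the opposite strand, shifted by 1 base, and the capitals in Cpox are AGATAA read on the opposite strand. The GC box, GGGCGG, was found in windows of Alas1, Alad, Uros, Urod and Ppox and in 35.7% of all windows. TGANNNNGC, a looser pattern than the core of antioxidant response elements, was found in windows of Uros and Cpox and in 41.3%. The CRE, TGACGTCA, was found in 1.79% of all windows and in none of the 9. No match of these other motifs shared bases with those in capitals. The matches describe letters of the genome, and binding at them was not measured here.

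The quality of the libraries was looked at first. The libraries held between 8198402 (KO1) and 12562640 (E8.5 WT) counts, and from 16511 to 17112 genes had a count. Ddx6 had 2943 reads at E7.5 and 5715 at E8.5 in WT, and 706 and 929 in KO1 and KO2, and its level was 5.52-fold and 6.09-fold lower in KO1 and KO2 than in E8.5 WT. Reads of exons outside the deletion count toward Ddx6, so the remaining reads do not show how much intact transcript was left. The median log2 difference of all genes kept against E8.5 WT was -0.01 for KO1 and -0.00 for KO2, close to 0. Genotypes came from extraembryonic tissue or yolk sac. The differences of KO1 and KO2 from E8.5 WT share 1 control library, and in whole embryos fewer cells of a type and less RNA per cell cannot be told apart.

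The order of the transcripts within a library was compared per length, as CPM (the read count normalized by the TMM-adjusted size of its library) per kilobase of annotated exon. Alad, which joins pairs of aminolevulinic acid molecules into porphobilinogen in the cytosol, stood first in all 4 libraries, at 68.3 CPM per kilobase at E7.5 and 69.1 at E8.5 in WT, and 47.3 and 51.9 in KO1 and KO2. Urod and Cpox, which trim the side chains of the ring, took the next places. In E7.5 WT, Urod (53.6) stood above Cpox (31.8), while in E8.5 WT Cpox (37.7) and Urod (37.1) did not differ beyond their 95% counting intervals. Urod was again above Cpox in KO1 (33.9 and 24.8) and in KO2 (34.7 and 26.7).

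Slc25a37, Alas1, Ppox and Fech followed between 6.19 and 13.7 CPM per kilobase. Slc25a37 was clear of the gene below it in E8.5 WT alone, at 13.7, and overlapped the gene below it in E7.5 WT, KO1 and KO2. Fech was seventh in every library, from 6.19 in KO2 to 7.19 in E7.5 WT, and it overlapped Alas1 above it in E8.5 WT and KO1. Uros, whose product closes the linear tetrapyrrole into the ring, stood last in all 4 libraries at 4.0 to 4.48. The lengths are unions of exons of protein-coding transcripts, and isoforms with shorter ends would raise the value of their gene.

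**Figure D1:**
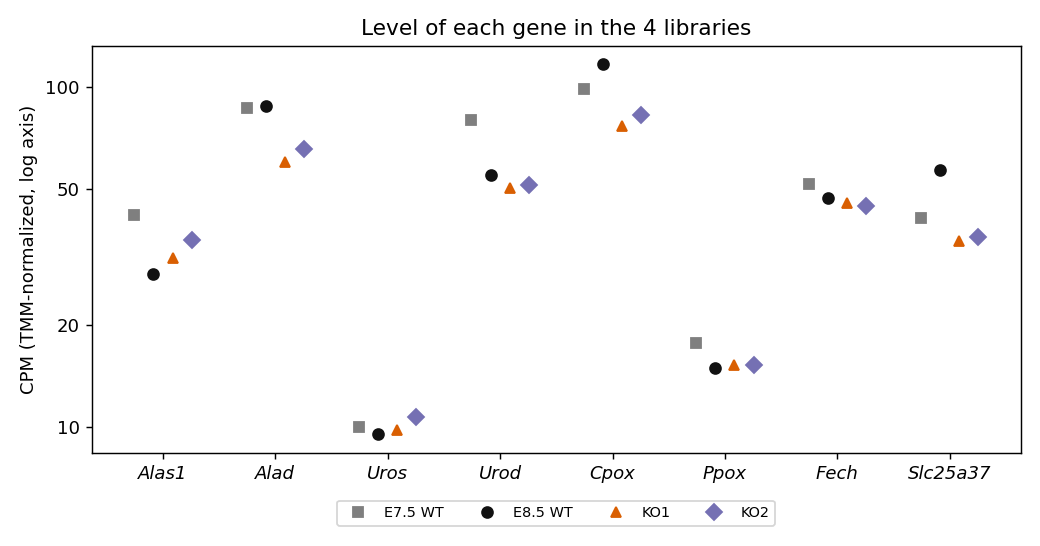
CPM after TMM normalization (log axis) of the 8 genes in the 4 libraries, with 1 point per library, to be compared within a gene since transcripts differ in length. For Alad, Urod, Cpox, Fech and Slc25a37 both KO points lie below both WT points, while for Alas1 both lie between the WT stages, E8.5 WT at 28.2 and E7.5 WT at 42.0.

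Alas1 encodes the housekeeping form of aminolevulinic acid synthase, the first and rate-limiting enzyme (chromosome 9, 106233455 to 106248654, minus strand, GRCm38). It had 499 reads at E7.5 and 347 at E8.5 in WT, and 263 and 434 in KO1 and KO2, or 42.0, 28.2, 31.3 and 35.6 CPM. Both KO libraries lay between the WT stages, above E8.5 WT and below E7.5 WT. Against E8.5 WT the log2 difference was 0.15 in KO1 (95% counting interval -0.09 to 0.38) and 0.33 in KO2 (0.13 to 0.54), with a mean of 0.24 ± 0.13 (SD, n = 2). The interval thus included 0 in KO1 and lay above 0 in KO2. Against E7.5 WT both were lower, by log2 differences of -0.42 (-0.64 to -0.20) and -0.24 (-0.43 to -0.05). The erythroid form, Alas2, had 133 reads at E7.5 and 67 at E8.5 in WT, and 5 and 43 in KO1 and KO2. Alas2 was thus lower in both KO libraries than in both WT libraries.

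Alad (chromosome 4, 62509169 to 62519918, minus strand) had 1032 reads at E7.5 and 1079 at E8.5 in WT, and 505 and 803 in KO1 and KO2, or 86.8, 87.8, 60.1 and 65.9 CPM. The WT stages lay together and both KO libraries lay below them. Relative to E8.5 WT the log2 difference was -0.54 in KO1 (-0.70 to -0.39) and -0.41 in KO2 (-0.55 to -0.28), which is 1.46-fold and 1.33-fold lower, and its mean was -0.48 ± 0.09 (SD, n = 2). Relative to E7.5 WT the values were nearly as large, at -0.53 (-0.69 to -0.37) and -0.40 (-0.53 to -0.26). The log2 difference between the WT stages was -0.02 (-0.14 to 0.11), so the choice of WT stage made little difference to the values of Alad.

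Uros (chromosome 7, 133686243 to 133710072, minus strand) was the gene with the fewest reads, with 119 at E7.5 and 117 at E8.5 in WT, and 82 and 130 in KO1 and KO2. Its level was lowest in E8.5 WT, at 9.52 CPM, and highest in KO2, at 10.7 CPM, and KO values overlapped WT values. Its log2 differences from E8.5 WT were 0.04 (-0.39 to 0.46) and 0.16 (-0.21 to 0.54). These intervals were the widest of the set, so Uros was measured less firmly than the other genes. Uros overlaps Bccip on the opposite strand, as Alas1, Cpox and Ppox overlap other genes on theirs, and counting was strand-specific.

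Urod encodes uroporphyrinogen decarboxylase of the cytosol (chromosome 4, 116989965 to 116994413, minus strand). It had 950 reads at E7.5 and 678 at E8.5 in WT, and 424 and 630 in KO1 and KO2, or 79.9, 55.2, 50.5 and 51.7 CPM. E7.5 WT stood apart above the other 3 libraries. From E8.5 WT the log2 differences were -0.13 (-0.31 to 0.05) and -0.09 (-0.25 to 0.06), which include 0, with a mean of -0.11 ± 0.02 (SD, n = 2). From E7.5 WT they were -0.66 (-0.83 to -0.49) and -0.63 (-0.78 to -0.48), the lowest of the set against that stage.

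Cpox encodes coproporphyrinogen oxidase of the mitochondrial intermembrane space (chromosome 16, 58670292 to 58717636, plus strand). Its reads numbered 1172 at E7.5 and 1434 at E8.5 in WT, and 644 and 1009 in KO1 and KO2, or 98.5, 117, 76.7 and 82.8 CPM. Both KO libraries lay below both WT libraries, of which E8.5 WT was the higher. The log2 difference from E8.5 WT was -0.60 in KO1 (-0.74 to -0.47) and -0.49 in KO2 (-0.61 to -0.38), or 1.52-fold and 1.41-fold lower, and its mean was -0.55 ± 0.08 (SD, n = 2). From E7.5 WT the log2 differences were -0.36 (-0.50 to -0.22) and -0.25 (-0.37 to -0.13).

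Ppox encodes protoporphyrinogen oxidase of the inner mitochondrial membrane, which makes protoporphyrin (chromosome 1, 171275990 to 171281186, minus strand). It had 210 reads at E7.5 and 183 at E8.5 in WT, and 128 and 186 in KO1 and KO2, or 17.7, 14.9, 15.2 and 15.3 CPM. The KO libraries lay just above E8.5 WT and below E7.5 WT. Log2 differences from E8.5 WT were 0.03 (-0.30 to 0.37) and 0.04 (-0.27 to 0.34). Those from E7.5 WT were both -0.21, and their intervals included 0.

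Fech encodes ferrochelatase, which inserts ferrous iron into protoporphyrin in the last step (chromosome 18, 64452914 to 64490251, minus strand). Its reads numbered 616 at E7.5 and 579 at E8.5 in WT, and 384 and 543 in KO1 and KO2, or 51.8, 47.1, 45.7 and 44.6 CPM. Both KO libraries lay below both WT libraries, by a margin over E8.5 WT that was within counting error. The log2 differences from E8.5 WT were -0.04 (-0.23 to 0.15) and -0.08 (-0.25 to 0.09), with a mean of -0.06 ± 0.03 (SD, n = 2). Against E7.5 WT they were -0.18 and -0.22, and the interval lay below 0 for KO2 (-0.39 to -0.05) and not for KO1. With plain CPM, KO1 lay above E8.5 WT, and Fech was then not below both WT libraries.

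Slc25a37 brings iron across the inner mitochondrial membrane for heme synthesis, chiefly in developing red blood cells (chromosome 14, 69241848 to 69285112, minus strand). It had 489 reads at E7.5 and 701 at E8.5 in WT, and 296 and 440 in KO1 and KO2, or 41.1, 57.0, 35.3 and 36.1 CPM. E8.5 WT stood above the other 3 libraries, and both KO libraries lay below E7.5 WT as well. From E8.5 WT the log2 difference was -0.69 in KO1 (-0.90 to -0.50) and -0.66 in KO2 (-0.83 to -0.49), 1.62-fold and 1.58-fold lower, and its mean of -0.67 ± 0.02 (SD, n = 2) was the lowest of the set. From E7.5 WT the log2 differences were -0.22 (-0.44 to -0.01) and -0.19, and the interval of the second included 0. The span of Slc25a37 overlaps that of an annotated gene on its own strand, Gm20236. Whether they share exons, and whether this touched the count of Slc25a37, was not tested.

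**Figure D2:**
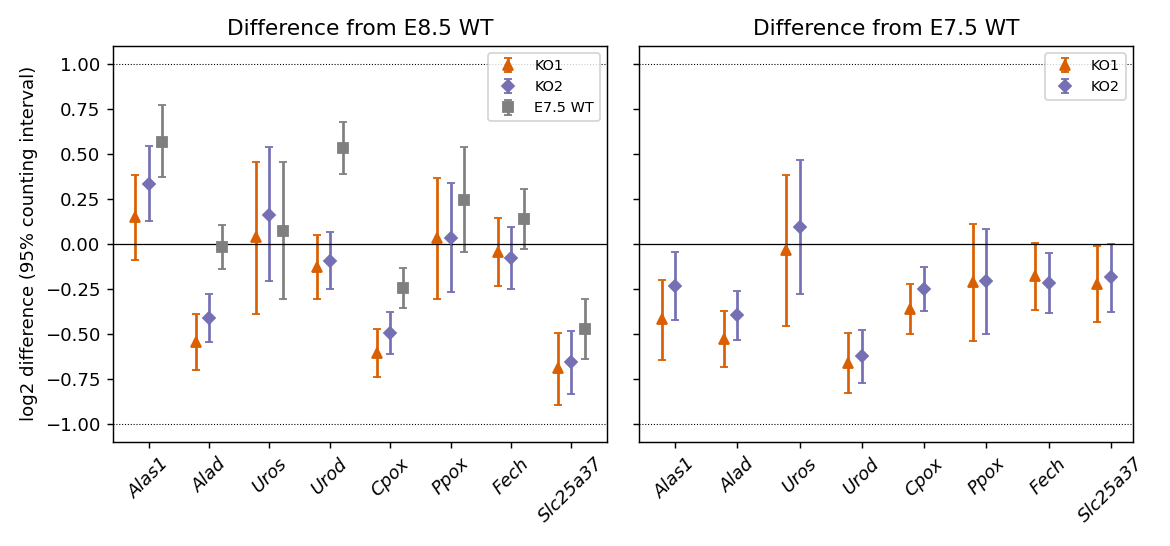
Log2 differences of the 8 genes from E8.5 WT (left) and from E7.5 WT (right), with 95% counting intervals as bars, dotted lines at the threshold of 1 and -1, and the E7.5 WT library added on the left. Alad, Cpox and Slc25a37 lie below 0 in both KO libraries on the left, and Alas1, Alad, Urod and Cpox on the right.

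Counted over the set, the interval lay below 0 in both KO libraries against E8.5 WT for 3 of the 8 genes (Alad, Cpox and Slc25a37), beside 15.8% of all genes kept. Among genes averaging 100 counts or more, which have narrower intervals, the share was 19.5%. The interval lay above 0 in both for none of the 8, beside 13.7%. Against E7.5 WT it lay below 0 in both for 4 genes (Alas1, Alad, Urod and Cpox), beside 23.6%. Alad and Cpox were common to both counts. The median log2 difference of the 8 genes was -0.09 in both KO1 and KO2 against E8.5 WT, and -0.29 in KO1 and -0.23 in KO2 against E7.5 WT, while the medians of all genes kept against E7.5 WT were 0.02 and 0.07. Summed over the 7 enzymes, the level was 387 CPM at E7.5 and 359 at E8.5 in WT, and 289 and 306 in KO1 and KO2. Alad and Cpox, the enzymes with the highest CPM in E8.5 WT, weigh most in this sum, while Alas1, Uros and Ppox had slightly higher values than E8.5 WT in both KO libraries.

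The spread between the KO libraries was the only replicate error of the design. In the two-sided edgeR quasi-likelihood test that set both KO libraries against E8.5 WT, with Benjamini-Hochberg adjustment over all genes kept, none of the 8 genes and 0% of all genes passed an adjusted p of 0.05. The smallest adjusted p of any gene was 0.0719, and 1039 genes had an unadjusted p under 0.05. Alad (unadjusted p = 0.029), Cpox (0.015) and Slc25a37 (0.014) were the 3 genes of the set under an unadjusted p of 0.05, each with an adjusted p of 0.669, and 2.94% of all genes were lower at that level. DESeq2 passed none of the 8, with Cpox alone under an unadjusted p of 0.05, and passed 35 genes in all. Against both WT libraries as 1 group, edgeR passed none of the 8 and 0% of all genes, with 565 under an unadjusted p of 0.05, and DESeq2 passed 32 genes and none of the 8. The adjusted p of the 8 genes lay between 0.900 and 0.980 with edgeR. The WT spread of this comparison holds a day of development, so these values do not show that KO and WT were alike. Alad alone was under an unadjusted p of 0.05 in that comparison, and this held for both tools.

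The WT stages and the KO libraries were also compared with each other, each pair being 1 library against 1, with no test. None of the 8 genes differed by over 2-fold between the WT stages, beside 20% of all genes kept. Counting intervals lay clear of 0 for 4 genes, beside 67.6% of all genes kept. Alas1 was higher in the earlier WT library by a log2 difference of 0.57 (0.37 to 0.77), and Urod by 0.53 (0.39 to 0.68). Slc25a37 was lower in E7.5 WT by a log2 difference of -0.47 (-0.64 to -0.30), and Cpox by -0.24 (-0.36 to -0.13). The set thus did not move one way with stage.

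KO1 and KO2 differed by over 2-fold for none of the 8 genes, beside 10.9% of all genes kept. Their counting intervals lay clear of 0 for none, beside 40.8%. The log2 difference of KO2 from KO1 lay between -0.04 for Fech and 0.18 for Alas1. All 8 intervals of this difference lay within -0.33 to 0.54, and they hold counting error alone, not the variation between pools.

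The other genes that handle heme and iron were described by lists. Of 25 genes of heme export, degradation, chaperoning and heme a synthesis, 23 were analysed here, and none passed the 2-fold threshold in both KO libraries. Their medians against E8.5 WT were 0.10 in KO1 and 0.12 in KO2. The interval lay above 0 in both KO libraries for 8, beside 13.7% of all genes kept, and below 0 for 2, beside 15.8%. Slc48a1, which carries heme out of endosomes and lysosomes, had the highest mean, with 118 reads at E7.5 and 89 at E8.5 in WT, and 115 and 178 in KO1 and KO2, and log2 differences from E8.5 WT of 0.90 and 0.99. Its level lay above both WT libraries in both KO libraries. Hccs, which attaches heme to cytochrome c, had the lowest mean, with 247, 442, 211 and 319 reads in the same order and log2 differences of -0.51 and -0.46. Its KO levels lay above E7.5 WT and below E8.5 WT.

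Of 25 genes of iron uptake, storage and iron-sulfur cluster assembly, all were kept and 1 passed the 2-fold threshold, upward. This was Hfe, a regulator of iron uptake, which had 14 reads at E7.5 and 2 at E8.5 in WT, and 15 and 17 in KO1 and KO2. With 2 reads in E8.5 WT the log2 differences of 2.52 (1.35 to 6.63) and 2.20 (1.02 to 6.26) are poorly bounded. The interval lay below 0 in both KO libraries for 9 genes of the list, beside 15.8% of all genes kept, and above 0 for 2, beside 13.7%. Levels of 9 lay below both WT libraries, beside 17.6%. Tfrc, the transferrin receptor through which cells take up iron, was among them, with 1657 reads at E7.5 and 2326 at E8.5 in WT, and 964 and 1662 in KO1 and KO2. Its log2 differences from E8.5 WT were -0.72 (-0.83 to -0.61) and -0.47 (-0.56 to -0.38). The medians of the list were -0.12 and -0.06.

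Among 14 regulators of heme synthesis and mitochondrial genes, none passed the 2-fold threshold in both KO libraries, and the medians were 0.01 and 0.05. Epas1, a hypoxia-inducible factor, had the highest mean, with 502 reads at E7.5 and 447 at E8.5 in WT, and 602 and 598 in KO1 and KO2 and log2 differences of 0.98 (0.80 to 1.16) and 0.43 (0.25 to 0.61). Ppargc1a, a coactivator known to raise Alas1 transcription, had the lowest mean, but with 1, 21, 7 and 12 reads its intervals included 0. The interval lay above 0 in both KO libraries for 4 regulators (Foxo1, Nfe2l1, Nfe2l2 and Epas1), beside 13.7% of all genes kept. It lay below 0 for 2, beside 15.8%, which were Nrf1 and Gabpa, both activators of nuclear genes for mitochondrial proteins. These intervals are against E8.5 WT, and levels of Foxo1, Nfe2l2 and Gabpa in both KO libraries lay between the WT stages. Levels of 3 regulators (Nfe2l1, Hif1a and Epas1) lay above both WT libraries in both KO libraries, beside 18.4%. Those of 2 (Nrf1 and Mafk) lay below both, beside 17.6%. Apart from Epas1, these regulators are named here after their values were seen. Nrf1 had 878 reads at E7.5 and 896 at E8.5 in WT, and 505 and 740 in KO1 and KO2, and log2 differences of -0.28 (-0.44 to -0.12) and -0.26 (-0.41 to -0.12).

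As a reference for mitochondria, 12 genes of other mitochondrial functions were taken, and none passed the threshold. Their medians were -0.12 and -0.04. The interval lay below 0 in both KO libraries for 5, beside 15.8% of all genes kept, and above 0 for 2, beside 13.7%. Levels of 7 of the 12 lay below both WT libraries, beside 17.6%. Tfam, which packages mitochondrial DNA, had the lowest mean, with 1163 reads at E7.5 and 1310 at E8.5 in WT, and 662 and 998 in KO1 and KO2 and log2 differences of -0.43 (-0.57 to -0.30) and -0.38 (-0.50 to -0.26). Polg, the polymerase of mitochondrial DNA, had the highest, with log2 differences of 0.25 and 0.14. Like the heme synthesis genes, the reference list thus held genes below both WT stages and none past 2-fold in both KO libraries.

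**Figure D3:**
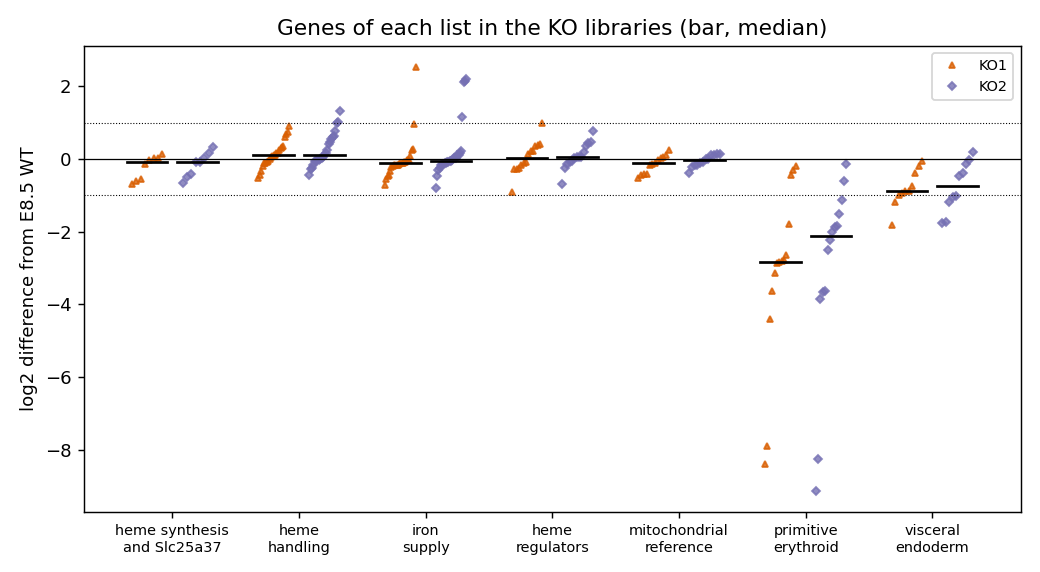
Log2 difference from E8.5 WT of each kept gene of 7 lists in KO1 and KO2, with 1 point per gene, a bar at the median, and dotted lines at 1 and -1. The heme synthesis genes and the heme, iron, regulator and mitochondrial lists lie around 0, and the primitive erythroid and visceral endoderm lists lie lower. The lowest erythroid points are genes with at most 3 reads in a KO library, where the value depends on the prior count.

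The patterns over the 4 libraries were set beside those of 88 genes of the heme, iron, regulator, mitochondrial and primitive erythroid lists, by the root mean square difference of log2 CPM centred on each gene's mean. For Slc25a37 the most alike was Tfrc, at 0.0826, followed by Tfam, at 0.131. For Cpox they were Tfam (0.0622) and Tfrc (0.0892), and for Alad Tomm20 (0.0721) and Tfam (0.0782). Fech lay closest to Isca1, at 0.0059, and Ppox to Cs, at 0.0169. Urod lay closest to Slc25a28 (0.0762), Alas1 to Cox10 (0.0764) and Uros to Aco1 (0.0635). No gene of the erythroid list was among the closest 2 of any of the 8, but the measure depends on the size of a change. Of the 14 erythroid genes kept, 10 were over 2-fold lower than E8.5 WT in both KO libraries. None of the 8 was, so those 10 could hardly rank as closest. With 4 libraries, many genes can share a pattern.

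Markers of red blood cells, of visceral endoderm and of tissues outside the embryo were measured in the same libraries. The primitive erythroid list had 19 genes in the table, whose summed level was 99.7 CPM at E7.5 and 340 at E8.5 in WT, and 70.3 and 43.0 in KO1 and KO2. Of 14 kept, 10 were lower than E8.5 WT by over 2-fold in both KO libraries, beside 257 of the 14393 genes kept. Of the defining markers, Hbb-bh1 had 23 reads at E7.5 and 1579 at E8.5 in WT, and 3 and 3 in KO1 and KO2. Hba-x had 0, 1221, 1 and 0 reads in the same order, Hbb-y had 0, 25, 0 and 0, Gata1 had 205, 65, 5 and 12, and Klf1 had 12, 76, 6 and 4. The KO libraries thus had few reads of embryonic globins, as E7.5 WT had. No read of the 6 adult globin genes, listed as markers of maternal blood, was counted in any library. Reads that near-identical genes share may not have been counted, so these zeros do not show whether maternal blood was present.

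The erythroid sum was highest in E8.5 WT, as were Cpox and Slc25a37, and it was carried there by Hbb-bh1 (128 CPM) and Hba-x (99.3 CPM). In the KO libraries most of it came from Tal1 (35.5 and 18.5 CPM) and Lmo2 (26.4 and 11.4 CPM), which other blood and vessel precursors also express. Gata1, Gfi1b and Alas2 were instead highest in E7.5 WT, and the sum was higher in KO1 than in KO2. Between KO1 and KO2, Cpox and Slc25a37 did not differ beyond counting error. The part of erythroid cells in the levels of the 8 genes was not tested.

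The 10 visceral endoderm markers summed to 7435 CPM at E7.5 and 7415 at E8.5 in WT, and 4406 and 4244 in KO1 and KO2. The interval lay below 0 against E8.5 WT in both KO libraries for 8 of them, beside 15.8% of all genes kept. None of the list was at 0 in any library. The sum was lower in both KO libraries, and 9 of the 10 genes lay below both WT libraries in both, beside 17.6% of all genes kept. Apoa1, Apom and Rbp4 were over 2-fold lower than E8.5 WT in both, as 257 of the 14393 genes kept were. The genes did not all move as one. Between the WT stages Apob was higher at E8.5 (1733 and 3110 CPM) while Apoa1 was lower (1021 and 548 CPM). Against E8.5 WT (129 CPM), Amn was higher in KO2 (147 CPM) and lower in KO1 (113.5 CPM). The interval of Hnf4a included 0 in both KO libraries. The part of visceral endoderm in the levels of the 8 genes was not tested. Trophoblast markers summed to 276 CPM at E7.5 and 201 at E8.5 in WT, and 452 and 868 in KO1 and KO2, with Prl3b1 and Tpbpa at 0 in all libraries. Maternal decidua markers summed to 139 CPM at E7.5 and 14.6 at E8.5 in WT, and 25.4 and 131 in KO1 and KO2. Few genes carried both sums. The trophoblast sum was mostly Hand1 in KO1 (422 CPM), which embryonic mesoderm also expresses, and Prl3d1 (341 CPM) and Hand1 (331 CPM) in KO2, and the decidua sum was mostly Prl8a2 in E7.5 WT (111 CPM) and KO2 (118 CPM). The part of these tissues in the levels of the 8 genes was not tested.

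**Figure D4:**
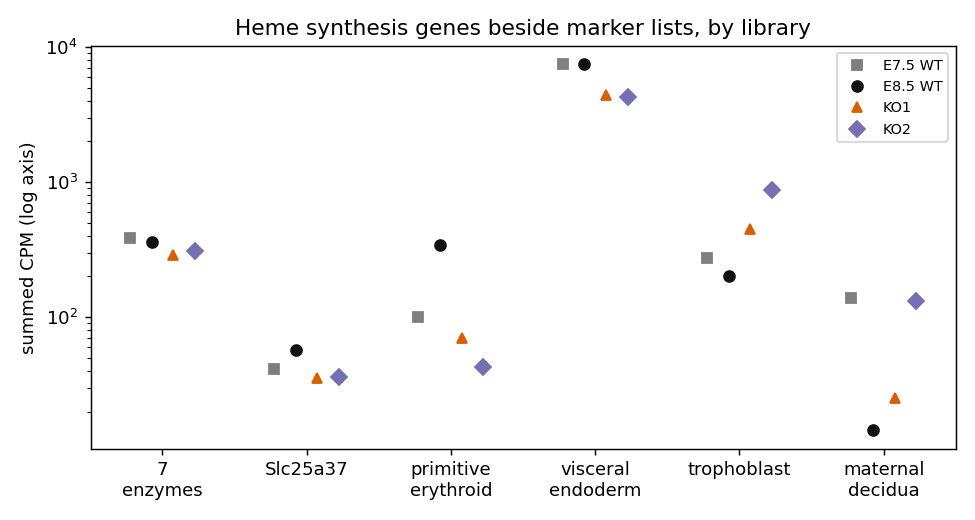
Summed CPM (log axis) of the 7 enzymes, of Slc25a37 and of 4 marker lists in each library, with 1 point per library. The enzyme sum lies between 289 and 387 CPM, while the erythroid sum lies between 43.0 CPM in KO2 and 340 CPM in E8.5 WT, and trophoblast markers are highest in KO2, at 868 CPM.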

How the data were processed

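Per the labels, whole embryos were lysed and libraries were made with a stranded mRNA kit. The deposited table gives raw read counts for each gene, not normalized by the authors. According to their methods and processing notes, reads were trimmed with Cutadapt 2.8, aligned to mm10 with HISAT2 2.1.0, sorted with SAMtools 1.9 and assigned to exons of their own strand with featureCounts 2.0.0.

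Counts were normalized here with TMM in edgeR 4.0.16 (R 4.3.3), and genes reaching 10 counts in any library were kept. Log2 differences are of CPM with a prior count of 2. Intervals are exact Clopper-Pearson 95% intervals of a gene's reads in 2 libraries, scaled by effective library size. They hold counting error alone, as reads carry no molecular identifiers and PCR copies are not separate molecules. Groups came from the sample labels. Tests were quasi-likelihood F-tests (edgeR), which were tested on simulated data, with DESeq2 1.42.0 as the alternative. In the test against E8.5 WT only the 2 KO libraries gave a spread. Nothing in the sources used here states whether the KO pools came from separate litters, so p-values of that test measure the spread between these pools. In the test against both WT libraries as 1 group, the spread also held the day of development between the WT stages. Alternatives were other normalizations, filters, prior counts and thresholds, and leaving out each KO library.

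The members, lists and motifs were chosen with earlier results of these data known. All 8 genes were named, with the genes called in each list or, where there were none, its highest and lowest mean, and the closest 2 by pattern. Tfrc was named by the last of these rules, and Alas2 as a marker. Gene positions and exon lengths came from GENCODE for GRCm38, the assembly of mm10, and may differ from the annotation used for counting. Python 3.11.15 with matplotlib 3.10.9 was used for figures.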

Additional observations from a re-analysis of the deposited data

How the results depend on the processing

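With the threshold at 0.5 on the log2 scale, 1 gene of the 8 differed from E8.5 WT in both KO libraries (Slc25a37), and 2 differed between the WT stages (Alas1 and Urod). At the threshold of 1 none did in either comparison with a prior count of 0.5, a minimum of 50 counts, no filter, plain CPM or the size factors of DESeq2. The 3 genes with intervals below 0 against E8.5 WT (Alad, Cpox and Slc25a37) were the same under DESeq2 size factors and plain CPM. With plain CPM, 4 genes lay below both WT libraries (Alad, Urod, Cpox and Slc25a37) and 1 lay above both. That scaling moved the medians of all genes to 0.06 in KO1 and 0.05 in KO2, and the mean log2 differences of Slc25a37 to -0.61, of Urod to -0.05, of Fech to -0.00 and of Ppox to 0.09. Without KO replicate 1, Alas1 joined the genes with an interval clear of 0, above it, which made 4, and 6 genes lay outside the WT range, against 5 without KO replicate 2. Leaving out a KO library left no spread for the test against E8.5 WT, which was then not run. No paired analysis was possible because each WT group held 1 library. Depth limits Uros and Ppox most, with 82 and 128 reads in KO1.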
